A study of Homo sapiens with 8 samples.

Results

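Metallothioneins are small cysteine-rich proteins that bind zinc and copper, and this account follows 8 of their genes together with the zinc sensor MTF1 and the zinc exporter SLC30A1 in a liver cancer line. These 10 genes were taken from the count table by matching the Ensembl identifiers to the symbols MT1E, MT1F, MT1G, MT1H, MT1M, MT1X, MT2A, MT3, MTF1 and SLC30A1, and all 10 were found among the 58206 genes listed. The cells were Alexander1, an established epithelial line from a human hepatocellular carcinoma, grown in DMEM with fetal serum and with no metal treatment named in the labels. The 4 parental libraries (genotype wt, Axin1 -) came from the line as obtained, whose Axin1, a scaffold of the complex that destroys beta-catenin, lacks the part that binds the kinase GSK3, so that the Wnt pathway is held on. The other 4 libraries (genotype Axin1 +) came from a derivative given full-length Axin1 by retroviral transfer and hygromycin B selection of clones. The labels give this transfer and selection on every sample, parental ones included, and how many clones were used is not stated, so the Axin1 transgene, the virus, the drug selection and differences between clones cannot be told apart. Nothing in the labels says that replicates were separate cultures, so p-values measure the spread between these libraries, which may be technical.

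As background, metallothioneins buffer zinc and copper, take up cadmium and other toxic metals and react with oxidants, and liver cells are known for high levels of them. When free zinc rises, MTF1, a zinc-finger transcription factor, binds metal response elements (MRE) in the promoters of the metallothionein genes and of SLC30A1, which moves zinc out of the cytosol across the plasma membrane. Oxidative stress and glucocorticoids are further known inducers of metallothionein genes.

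Of the 10 genes, 5 had an entry in the RefSeq promoter table (GRCh38.p14). The sequences of 4 are shown because they hold the element through which MTF1 acts, in 1 gene that was lower in the derivative and expressed (MT2A), a second of that kind (MT1X), 1 nearly silent gene (MT1H) and the exporter (SLC30A1). Each is the 250 bases before the RefSeq start, 5' to 3' on the gene's strand, with capitals marking each match to the MRE core, searched as TGCACNC and TGCGCNC on both strands. The intervals are chr16:56608334-56608583 for MT2A, chr16:56682220-56682469 for MT1X, chr16:56669564-56669813 for MT1H, all on the plus strand, and chr1:211579162-211579411 on the minus strand for SLC30A1. For MT2A, MT1X and SLC30A1 the RefSeq start differs from the GENCODE gene bounds given below. Motif numbers hold for these windows, and other starts were not searched.
MT2A: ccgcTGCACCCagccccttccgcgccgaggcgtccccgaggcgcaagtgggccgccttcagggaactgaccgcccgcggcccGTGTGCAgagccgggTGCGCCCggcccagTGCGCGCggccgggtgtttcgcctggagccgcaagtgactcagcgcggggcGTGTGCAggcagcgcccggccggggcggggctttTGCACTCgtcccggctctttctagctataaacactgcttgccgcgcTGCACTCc
MT1X: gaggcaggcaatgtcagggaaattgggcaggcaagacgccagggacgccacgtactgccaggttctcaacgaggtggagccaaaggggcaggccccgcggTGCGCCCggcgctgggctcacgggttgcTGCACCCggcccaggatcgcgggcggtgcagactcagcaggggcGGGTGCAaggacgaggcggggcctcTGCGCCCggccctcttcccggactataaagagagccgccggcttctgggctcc
MT1H: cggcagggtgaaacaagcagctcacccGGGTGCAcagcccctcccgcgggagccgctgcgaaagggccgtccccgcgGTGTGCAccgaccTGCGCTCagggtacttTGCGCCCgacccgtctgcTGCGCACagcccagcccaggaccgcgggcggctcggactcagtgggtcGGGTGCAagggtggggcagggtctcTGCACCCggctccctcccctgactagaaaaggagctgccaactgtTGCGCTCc
SLC30A1: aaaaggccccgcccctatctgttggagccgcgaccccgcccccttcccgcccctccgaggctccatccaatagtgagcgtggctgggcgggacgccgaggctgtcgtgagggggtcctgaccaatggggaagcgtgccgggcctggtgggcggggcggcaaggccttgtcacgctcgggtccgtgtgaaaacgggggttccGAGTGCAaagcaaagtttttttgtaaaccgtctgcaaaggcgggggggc

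The MT2A window held 7 MRE cores that did not overlap each other, MT1X held 4, MT1H held 8 and SLC30A1 held 1, while the window of MTF1 held 0. Among 35114 promoter windows of the same length, 24.8% held at least 1 core, 0.208% at least 4, 0.0228% at least 7 and 0.0142% at least 8. The antioxidant response element core, the site of the stress factor NRF2, was searched as TGACNNNGC on both strands and lay once each in the windows of MT2A, MT1X and SLC30A1, against 10.9% of all windows. Cores of the Wnt factors TCF and LEF, searched as CTTTGAT and CTTTGAA on both strands, were at 0 in the 5 windows, against 5.94% of all windows. A TATA box (TATAAA, both strands) lay 24 to 29 bases before the start of MT2A and 25 to 30 bases before that of MT1X, and 10.7% of all windows held one. These matches describe the letters only, and MT1H, with the most MRE cores, was nearly without reads in every library.

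**Figure D1:**
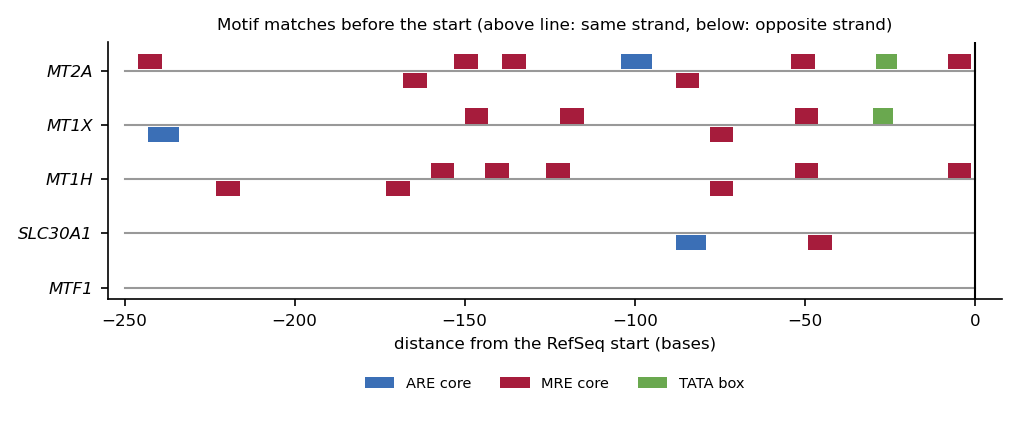
Motif matches in the 250 bases before the RefSeq start of MT2A, MT1X, MT1H, SLC30A1 and MTF1 (x axis, distance from the start in bases; boxes above a line are on the gene's strand and below it on the opposite strand; red, MRE core; blue, antioxidant response element core; green, TATA box). The metallothionein windows carry 4 to 8 MRE cores, SLC30A1 carries 1 and MTF1 carries 0.

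The libraries held between 11232951 and 26400782 counts, and the derivative's were the deeper ones in 3 of 4 cases. AXIN1 itself stood between 47.4 and 55.3 CPM (the count as a share of the TMM-scaled library total) in the parental libraries and between 37.7 and 48.2 CPM in the others (log2 fold change -0.21, edgeR adjusted p = 0.267). Since its mRNA was not higher where the labels say Axin1 was restored, those libraries are called restored-labelled here and every direction rests on the labels. The first principal component of log2 CPM separated the labels, with restored-labelled replicate 1 nearest to the parental libraries (22.2 against 48.7 or more for the others of its label). Parental replicate 1 stood apart on the second component (61.5, against -30.3 to 25 for the other libraries). All 10 hepatocyte and liver cancer markers, among them AFP, SERPINA1 and HNF4A, had more than 3 counts in all 8 libraries. Their summed level was 24500 to 28700 CPM in the parental and 18400 to 22000 CPM in the restored-labelled libraries. SERPINA1 was the largest part of it, at 14800 to 17600 and 8940 to 11600 CPM. Single markers went both ways, with 2 called higher and 3 lower. FGB, for one, stood at 688 to 916 CPM in the parental and 2260 to 3500 CPM in the restored-labelled libraries. ALB varied widely within the labels, at 46.7 to 208 CPM in the parental and 13.8 to 681 CPM in the restored-labelled libraries. The summed level of 6 fibroblast markers was 4.81 CPM or less in every library, and that of 4 leukocyte markers 0.712 CPM or less. Among the fibroblast markers, PDGFRB was at 0.801 to 2.29 CPM in the parental and 0.0493 to 0.43 CPM in the restored-labelled libraries. COL1A1 overlapped, at 0.609 to 2.05 and 0.991 to 3.91 CPM. Of 4 endothelial markers, PECAM1 was at 4.47 to 6.5 CPM in the parental and 33.8 to 58.3 CPM in the restored-labelled libraries, while CDH5, VWF and KDR stayed at 0.248 CPM or less. In all, 14289 genes were tested with edgeR's quasi-likelihood test, with 1485 called higher and 1253 called lower in the restored-labelled libraries (adjusted p under 0.05 over all of them; 19.2% called, 10.4% higher and 8.77% lower). With scaling by total counts only, the split was 1724 higher and 868 lower.

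MT2A, the main metallothionein of these cells, was lower in the restored-labelled libraries, and so was MT1X, while MTF1 and SLC30A1 did not pass the test. Of the 10 genes, 4 had enough counts to be tested, and 0 of these were higher and 2 lower, where 8.77% of all genes tested were lower. The 6 genes that were not tested are described by their counts. The summed liver markers, with calls in both directions among the 10, PECAM1 and PDGFRB also differed between the labels. Their part in the differences below was not tested. In bulk RNA, fewer cells that express a gene and less RNA per cell cannot be told apart.

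MT2A (ENSG00000125148, chr16:56608199-56609497, plus strand) encodes the most widely expressed human metallothionein. Replicates 1 to 4 stood at 11.7, 12.3, 17.5 and 18.7 CPM among the parental libraries, and replicates 1 to 4 of the restored label at 3.16, 6.69, 6.9 and 6.13 CPM. The groups did not overlap, as for 11.2% of all genes tested in that direction, and restored-labelled replicate 1 was the lowest library. The means were 15.1 CPM ± 3.55 and 5.72 CPM ± 1.74 (SD, n = 4 each), resting on 81 to 262 counts per library. Taken as restored-labelled over parental, MT2A changed by -1.41 on the log2 scale (SE 0.27, 95% interval -2 to -0.82, edgeR adjusted p = 0.00544). It lay between -1.51 and -1.20 over 20 other settings, with an adjusted p of 1.43e-05 (DESeq2) to 0.0193 (edgeR). It was -1.20 without the lowest library (edgeR adjusted p = 0.00409) and -1.30 without replicate 1 of both labels (edgeR adjusted p = 0.000263).

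MT1X (ENSG00000187193, chr16:56682424-56684196, plus strand), a gene of the MT1 subgroup, followed at a lower level. Its values were 1.96, 3.45, 4.99 and 4.29 CPM in the parental and 0.897, 2.31, 1.28 and 2.07 CPM in the restored-labelled libraries. The groups overlapped through parental replicate 1, whose value lay below those of restored-labelled replicates 2 and 4. The log2 fold change was -1.19 (SE 0.38, 95% interval -2.01 to -0.36), and the edgeR adjusted p, 0.0485, lay next to the threshold. The call was lost without parental replicates 2, 3 or 4 (edgeR adjusted p = 0.0962, 0.125 and 0.102) and without restored-labelled replicates 1, 3 or 4 (edgeR adjusted p = 0.0841, 0.134 and 0.0792). It was also lost with total counts only (edgeR adjusted p = 0.0675) and with an offset for gene length and GC content (edgeR adjusted p = 0.0549), at log2 fold changes that stayed between -1.40 and -0.97 over all settings. Of the 50-base stretches of the MT1X mRNA, 51% also occur in transcripts of other genes, so that reads could be shared. One such locus, ENSG00000259827, overlaps MT1X on the same strand and had 0 counts in all 8 libraries.

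**Figure D2:**
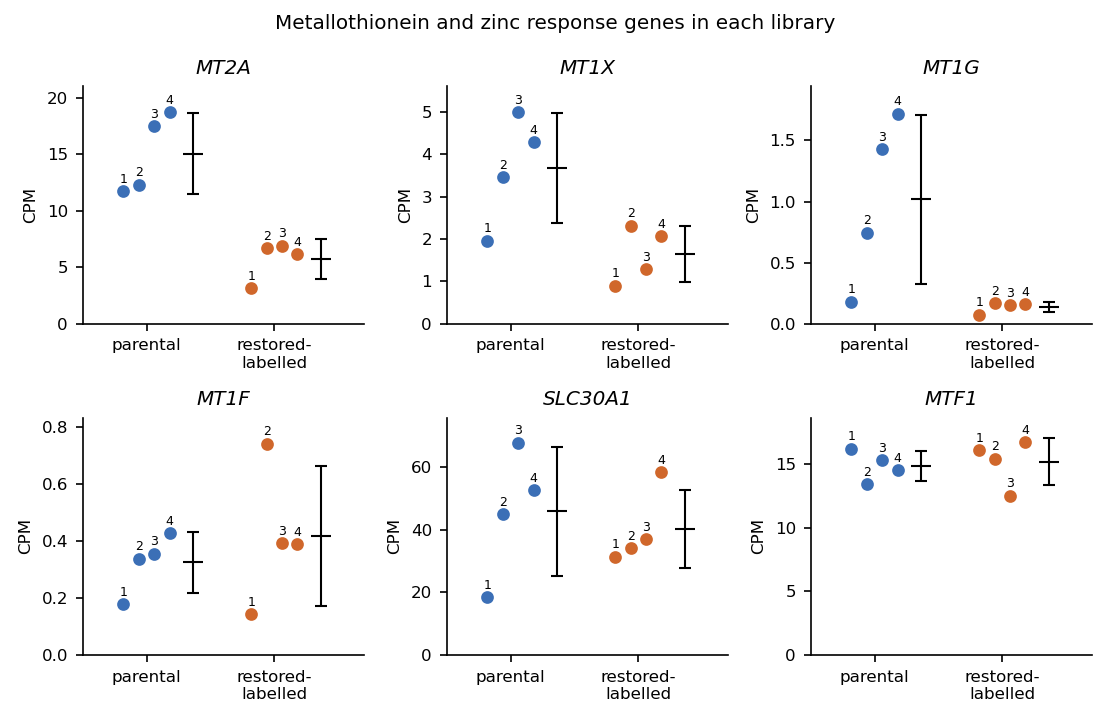
CPM of 6 genes in each library (y axes start at 0; points are libraries with their replicate number; the black mark and bars are the mean and SD of 4 libraries). MT2A at 11.7 CPM or more in the parental and 6.9 CPM or less in the restored-labelled libraries is the clearest separation, while MTF1 lies between 12.5 and 16.7 CPM in both.

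MT1G (ENSG00000125144, chr16:56666731-56668065, minus strand), another MT1 gene, had too few counts for the main test. In the order of replicates 1 to 4, it had 2, 11, 16 and 24 parental counts and 2, 2, 3 and 4 restored-labelled counts, or 0.178, 0.745, 1.43 and 1.72 CPM against 0.0717, 0.165, 0.148 and 0.156 CPM. Parental replicates 2 to 4 were the high libraries, and parental replicate 1 lay just above the restored-labelled ones. Summed over libraries, 53 parental and 11 restored-labelled counts gave a level 8.08 times as high in the parental cells (exact 95% interval 4.17 to 17.2, counting error only). Without an expression filter, edgeR's quasi-likelihood test put MT1G at a log2 fold change of -2.88 (edgeR adjusted p = 0.000952 over 30224 genes). That fit also gave MT2A a smaller edgeR adjusted p, 2.68e-05 against 0.00544 in the main analysis, and was not part of the simulation. Its p-value for MT1G, with 2 to 4 counts in each restored-labelled library, is therefore not used as support. Of its 50-base stretches, 20.2% occur in other genes, MT1X and MT2A among them.

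MT1F (ENSG00000198417, chr16:56657694-56660698, plus strand) did not follow MT2A in its values. It had 2, 5, 4 and 6 counts in the parental and 4, 9, 8 and 10 counts in the restored-labelled libraries, or 0.326 CPM ± 0.106 and 0.418 CPM ± 0.247 (SD, n = 4 each). The ratio of parental to restored-labelled levels was 0.92 (exact 95% interval 0.478 to 1.71, counting error only), an interval that does not reach the ratio of 2.78 found for MT2A by the same measure (2.47 to 3.12). The groups of MT1F overlapped.

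The remaining metallothionein genes were at or near 0. MT1M (ENSG00000205364) had 0 counts in all 8 libraries, which allows a level of up to 0.108 to 0.267 CPM, the worth of 3 counts in the deepest and the shallowest scaled library. MT1E (ENSG00000169715) had 1 count in each of parental replicates 1 and 3 and 0 elsewhere. MT1H (ENSG00000205358) had 0, 1, 0 and 4 counts in the parental and 1, 0, 0 and 1 in the restored-labelled libraries. MT3 (ENSG00000087250), known as the metallothionein of the brain, had 1 count in parental replicate 2 and 1 in restored-labelled replicate 3. For these 4 genes no difference between the labels was detectable at this depth. Of 10 further metallothionein genes and pseudogenes, 4 had any count and 0 were tested, with summed levels of 0.0677 to 0.267 CPM in the parental and 0.0493 to 0.538 CPM in the restored-labelled libraries. MT1A alone among them reached 7 counts, in restored-labelled replicate 1.

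Since these genes are near-copies and may exchange reads, their counts were also summed over all 18 metallothionein rows. The sums of replicates 1 to 4 were 14.4, 17.1, 24.6 and 25.6 CPM under the parental label, against 4.84, 10.1, 8.82 and 8.86 CPM under the restored label. Every parental library lay above every restored-labelled one, as held for 11.2% of all single genes tested. The ratio of the means, 20.4 CPM ± 5.53 to 8.15 CPM ± 2.28 (SD, n = 4 each), was 2.51. MT2A made up 65.2% to 81.5% of the metallothionein counts of a library and MT1X 13.6% to 23.3%, with overlapping ranges in the labels. The sum is a description of the listed genes, with no test of its own, and its separation largely repeats that of MT2A.

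**Figure D3:**
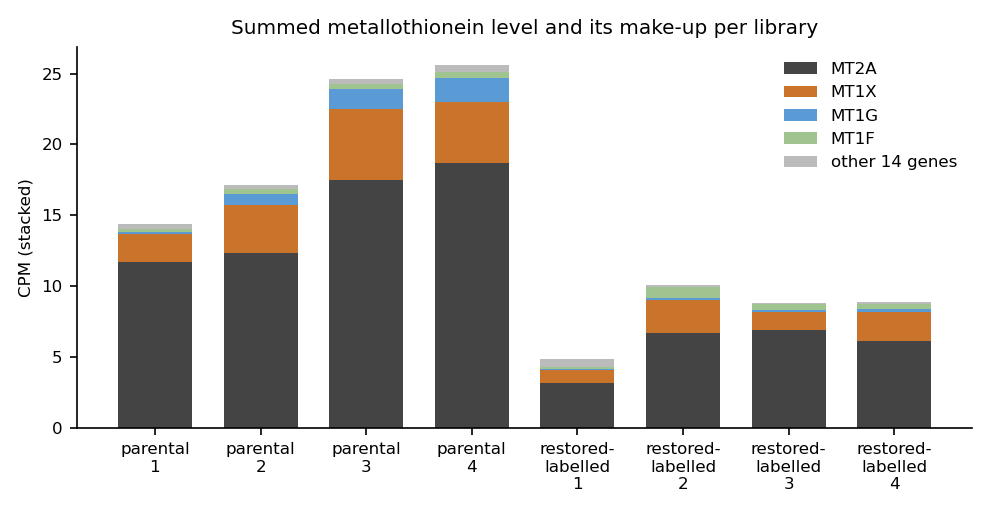
Summed level of 18 metallothionein genes in each library (y axis, CPM, stacked by gene; x axis, the 8 libraries by label and replicate). The parental bars reach 14.4 to 25.6 CPM and the restored-labelled bars 4.84 to 10.1 CPM, with MT2A the largest share in each.

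MTF1 (ENSG00000188786, chr1:37809567-37859620, minus strand), the transcription factor that senses zinc, was not called. It stood at 16.2, 13.4, 15.3 and 14.5 CPM in the parental and at 16.1, 15.4, 12.5 and 16.7 CPM in the restored-labelled libraries, with overlapping groups. Its log2 fold change was 0.03 (SE 0.15, 95% interval -0.30 to 0.36, edgeR adjusted p = 0.901). The activity of the MTF1 protein was not measured.

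SLC30A1 (ENSG00000170385, chr1:211571568-211578742, minus strand), the zinc exporter of the plasma membrane and itself a target of MTF1, was not called. Its values were 18.5, 45, 67.7 and 52.5 CPM in the parental and 31.4, 34, 36.9 and 58.4 CPM in the restored-labelled libraries. Parental replicate 1 was the lowest library and parental replicate 3 the highest, so the restored-labelled values lay within the parental range. The log2 fold change was -0.19 (SE 0.33, 95% interval -0.92 to 0.53, edgeR adjusted p = 0.719), and it was -0.45 without parental replicate 1 (edgeR adjusted p = 0.154) and 0.05 without parental replicate 3 (edgeR adjusted p = 0.932). With the offset for length and GC content SLC30A1 stood at -0.33 (edgeR adjusted p = 0.404). Within a library, a ratio that needs no scaling set both genes side by side. MT2A had 0.258 to 0.635 counts per SLC30A1 count in the parental libraries and 0.1 to 0.197 in the restored-labelled ones. These ranges did not overlap, and neither did those of MT2A alone. The 0.635 was that of parental replicate 1. The mRNAs differ in length (401 bases for MT2A, 5474 for SLC30A1), so the ratio can still carry differences between libraries that depend on length.

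Per length of mRNA, MT2A was the highest of the 10 genes in the parental libraries. The level was 37.6 CPM per kilobase for MT2A, 9.09 for MT1X, 8.39 for SLC30A1, 2.5 for MT1G, 1.87 for MTF1 and 0.766 for MT1F. The range of MT2A over libraries (29.3 to 46.8 CPM per kilobase) lay above those of MT1X (4.85 to 12.3) and SLC30A1 (3.38 to 12.4), which overlapped each other. In the restored-labelled libraries MT2A was at 14.3 CPM per kilobase (7.87 to 17.2) and overlapped SLC30A1 at 7.34 (5.74 to 10.7), followed by MT1X at 4.06, MTF1 at 1.91, MT1F at 0.983 and MT1G at 0.333. On the scale of all genes tested, the mean log2 CPM of MT2A was at percentile 33.6 and that of MT1X at percentile 16.6, and those of MTF1 and SLC30A1 at 42.6 and 65.5.

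The metallothionein cluster spans chr16:56565049-56684196 (119 kb), and the genes beside it were examined as its chromosomal surroundings. Of 19 listed neighbours 17 were tested, 3 of them higher and 1 lower, with a median log2 fold change of 0.12 against 0 for all genes tested. The share called, 23.5%, was near the 19.2% of all genes. The nearest tested gene before the cluster, BBS2, which encodes a cilium protein, rose from 14.4 ± 1.98 to 21.5 ± 2.75 CPM (SDs, n = 4 libraries each; log2 fold change 0.58, SE 0.16, edgeR adjusted p = 0.0271). Its call was lost without parental replicates 2 or 3 (edgeR adjusted p = 0.0764 and 0.0668) or restored-labelled replicates 3 or 4 (edgeR adjusted p = 0.0847 and 0.0875). The nearest after it, NUP93, encoding a nuclear pore protein, was not called, at -0.14 on the log2 scale (SE 0.18, edgeR adjusted p = 0.63). Farther out, HERPUD1, a gene of the endoplasmic reticulum stress response, rose from 91.1 ± 13.2 to 175 ± 14.9 CPM (SDs, n = 4 libraries each; log2 fold change 0.94, edgeR adjusted p = 0.00122). NLRC5, a regulator of MHC class I genes, rose from 0.742 ± 0.525 to 2.41 ± 0.589 CPM (SDs, n = 4 libraries each; log2 fold change 1.72, edgeR adjusted p = 0.0194), a call lost without parental replicates 2 or 3 or restored-labelled replicate 4 (edgeR adjusted p = 0.0684, 0.0528 and 0.0664). SLC12A3, encoding the thiazide-sensitive sodium chloride cotransporter, fell from 4.87 ± 1.88 to 0.267 ± 0.47 CPM (SDs, n = 4 libraries each; edgeR adjusted p = 0.00845), where restored-labelled replicate 1 stood at 0.969 CPM and the remaining ones at no more than 0.0986 CPM. Its fitted log2 fold change was -3.95, and -6.85 without restored-labelled replicate 1.

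The other genes of zinc, copper and stress handling were read from 8 lists with 83 genes in all besides the 10, of which 68 were tested. Of these 7 were called higher and 8 lower (22.1%, near the 19.2% of all genes), with a median log2 fold change of 0.06. With scaling by total counts only, 10 were higher and 5 lower. The number moved with single libraries: 6 were called without parental replicate 2, 9 without parental replicate 3, 7 without restored-labelled replicate 3, 4 without restored-labelled replicate 4, and 32 without replicate 1 of both labels.

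Among 9 zinc exporters of the ZnT family other than SLC30A1, 8 were tested, 1 was higher and 0 lower. The share called was 12.5%, against 19.2% of all genes, with a median log2 fold change of -0.28. DESeq2, with 19.5% of its calls false in simulated counts, called 2 higher and 2 lower in this list. At an unadjusted edgeR p under 0.05 2 were higher and 4 lower. SLC30A5, which carries zinc into the secretory pathway, rose from 36.2, 41.5, 49.4 and 39.1 CPM in the parental to 67.5, 66, 66.3 and 91.7 CPM in the restored-labelled libraries (log2 fold change 0.81, SE 0.15, edgeR adjusted p = 0.00477). The groups did not overlap, as for 12.7% of all genes tested in that direction, and the call held in all 20 other settings. Among 14 zinc importers of the ZIP family, 12 were tested, 3 were higher and 0 lower. The share called was 25%, against 19.2% of all genes, with a median log2 fold change of 0.17. SLC39A6 rose from 19.3 ± 5.76 to 40.3 ± 10.9 CPM (SDs, n = 4 libraries each; log2 fold change 1.07, SE 0.25, edgeR adjusted p = 0.0151), and stood at an adjusted p of 0.0521 without restored-labelled replicate 4. SLC39A3 rose from 24.3 ± 3.54 to 38.6 ± 8.6 CPM (SDs, n = 4 libraries each; log2 fold change 0.67, edgeR adjusted p = 0.0271). That call was lost without parental replicates 2 or 3 (edgeR adjusted p = 0.0817 and 0.073) and without restored-labelled replicates 2 or 3 (edgeR adjusted p = 0.0686 and 0.0867). SLC39A9 rose from 79.4 ± 8.08 to 109 ± 17.3 CPM (SDs, n = 4 libraries each; log2 fold change 0.46, edgeR adjusted p = 0.0415), a call lost without any library other than restored-labelled replicate 1, at adjusted p-values of 0.0509 to 0.129.

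Genes known as MTF1 targets outside the cluster (SLC39A10, GCLC, SELENOH, SELENOW, PGF) were all tested. Of these, 0 of 5 were called by edgeR, 0 by DESeq2 and 0 by limma-voom. At an unadjusted edgeR p under 0.05, 1 of the 5 was higher and 1 lower (median log2 fold change 0.20). The list was not split by whether MTF1 raises or lowers a gene, so its median is no measure of MTF1 activity. PGF was near the floor, at 0.599 CPM ± 0.503 in the parental and 0.65 CPM ± 0.123 in the restored-labelled libraries (SD, n = 4 each). With edgeR calling 19.2% of all genes, 0 of 5 does not set the list apart. The smallest p-value was that of GCLC, the catalytic subunit of the enzyme that starts glutathione synthesis, at 239 CPM ± 56.5 and 179 CPM ± 23.3 (SD, n = 4 each; log2 fold change -0.42, SE 0.18, edgeR adjusted p = 0.132).

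Of 14 copper handling genes 13 were tested, 2 higher and 1 lower (23.1%, against 19.2% of all genes, median log2 fold change 0.05). ATP7A, a copper exporter, rose from 7.85 ± 1.9 to 14.7 ± 5.67 CPM (SDs, n = 4 libraries each; log2 fold change 0.91, edgeR adjusted p = 0.041), a call lost without parental replicates 1, 2 or 3 (edgeR adjusted p = 0.0557, 0.0894 and 0.0881) or restored-labelled replicates 3 or 4 (edgeR adjusted p = 0.0892 and 0.131). COX11, which delivers copper to cytochrome oxidase, rose from 33 ± 5.35 to 51.2 ± 6.4 CPM (SDs, n = 4 libraries each; log2 fold change 0.63, edgeR adjusted p = 0.016). COX19, another assembly factor of that enzyme, fell from 23.9 ± 4.31 to 14.3 ± 2.27 CPM (SDs, n = 4 libraries each; log2 fold change -0.74, edgeR adjusted p = 0.0164). Without restored-labelled replicate 4 the adjusted p was 0.056 for COX11 and 0.0535 for COX19.

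The oxidative stress list of NRF2 genes had 0 higher and 5 lower of 14 tested. These were the most calls in 1 direction among the 8 lists, which differ in size. The share called was 35.7%, against 19.2% of all genes tested, of which 8.77% were lower. The median log2 fold change was -0.41. HMOX1, encoding heme oxygenase and inducible by heavy metals, stood at 1040, 1100, 984 and 1140 CPM in the parental and at 485, 603, 712 and 569 CPM in the restored-labelled libraries. The groups did not overlap, as for 11.2% of all genes tested in that direction. The log2 fold change was -0.85 (SE 0.14, edgeR adjusted p = 0.00304). GCLM, the modifier subunit for glutathione synthesis, fell from 236, 241, 270 and 231 CPM to 171, 122, 147 and 150 CPM, again without overlap (log2 fold change -0.73, SE 0.13, edgeR adjusted p = 0.00371). The calls of HMOX1 and GCLM held in all 20 other settings. OSGIN1, an oxidative stress response gene, fell from 102 ± 34.7 to 53.9 ± 15.6 CPM (SDs, n = 4 libraries each; log2 fold change -0.92, edgeR adjusted p = 0.0283), and lost its call without parental replicate 2 or restored-labelled replicates 2, 3 or 4 (edgeR adjusted p = 0.0595, 0.0563, 0.0805 and 0.0809). SLC7A11, the cystine importer, was named after its values were seen and lay at the threshold (51 ± 8.17 and 37 ± 4.72 CPM, SDs, n = 4 libraries each; log2 fold change -0.46, edgeR adjusted p = 0.05, just under it before rounding). Its call was lost in 10 of 20 other settings, among them without parental replicates 2, 3 or 4 (edgeR adjusted p = 0.159, 0.0515 and 0.0704) and without restored-labelled replicates 2, 3 or 4 (edgeR adjusted p = 0.11, 0.117 and 0.142). NQO1 and FTL, a further 2 genes of the list, had log2 fold changes of 0.25 and 0.31 (edgeR adjusted p = 0.337 and 0.382).

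The heat shock list had 1 higher and 2 lower of 10 tested (30%, against 19.2% of all genes, median log2 fold change 0.22). It was of interest because heavy metals also induce these genes. HSF1, the factor that drives them, fell from 102 ± 7.19 to 75.2 ± 6.5 CPM (SDs, n = 4 libraries each; log2 fold change -0.43, edgeR adjusted p = 0.0227). HSPB1, a small heat shock protein gene, fell from 497 ± 166 to 302 ± 50.3 CPM (SDs, n = 4 libraries each; log2 fold change -0.72, edgeR adjusted p = 0.0425). BAG3, a co-chaperone gene, rose from 48.3 ± 4.29 to 63.3 ± 1.34 CPM (SDs, n = 4 libraries each; log2 fold change 0.39, edgeR adjusted p = 0.0316). HSPA1A and HSPA1B, the classic inducible pair and near-copies of each other, had log2 fold changes of 0.30 and 0.28 (edgeR adjusted p = 0.627 and 0.595). The call of HSF1 was lost without parental replicate 2 or restored-labelled replicates 2 or 4 (edgeR adjusted p = 0.0629, 0.0537 and 0.0781) and with total counts only (edgeR adjusted p = 0.0524). Those of HSPB1 and BAG3 were lost without any library other than parental replicates 1 and 3 for HSPB1, at adjusted p-values of 0.0565 to 0.128, and other than parental replicate 1 and restored-labelled replicate 1 for BAG3, at 0.0544 to 0.111. Of the glucocorticoid response list, 8 of 9 genes were tested and 0 were called by edgeR or by limma-voom (median log2 fold change 0.25). With edgeR calling 19.2% of all genes, 0 of 8 does not set the list apart. DESeq2, with 19.5% of its calls false in simulated counts, called 1 higher and 1 lower. An unadjusted edgeR p under 0.05 was reached by 2 higher and 1 lower. The smallest p-value was that of the receptor gene NR3C1 at 58.8 CPM ± 8.83 and 78.7 CPM ± 8.68 (SD, n = 4 each; log2 fold change 0.42, edgeR adjusted p = 0.0556).

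**Figure D4:**
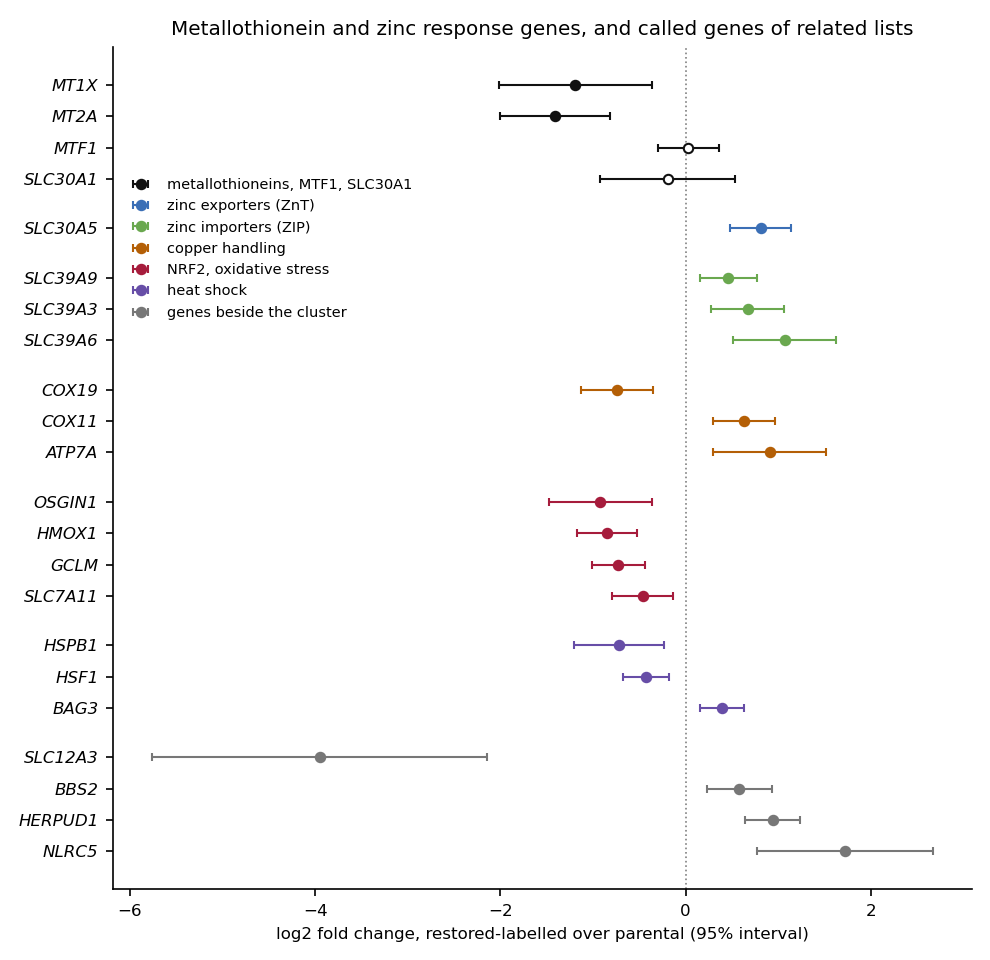
Log2 fold changes, restored-labelled over parental, with 95% intervals (x axis) for the 4 tested genes among the metallothioneins, MTF1 and SLC30A1 and for called genes of the related lists (filled points, adjusted p under 0.05; open points, not called; colours, lists). MT2A at -1.41 and MT1X at -1.19 lie on the same side as the 4 NRF2 genes drawn, and the 4 called ZnT and ZIP genes lie on the other.

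**Figure D5:**
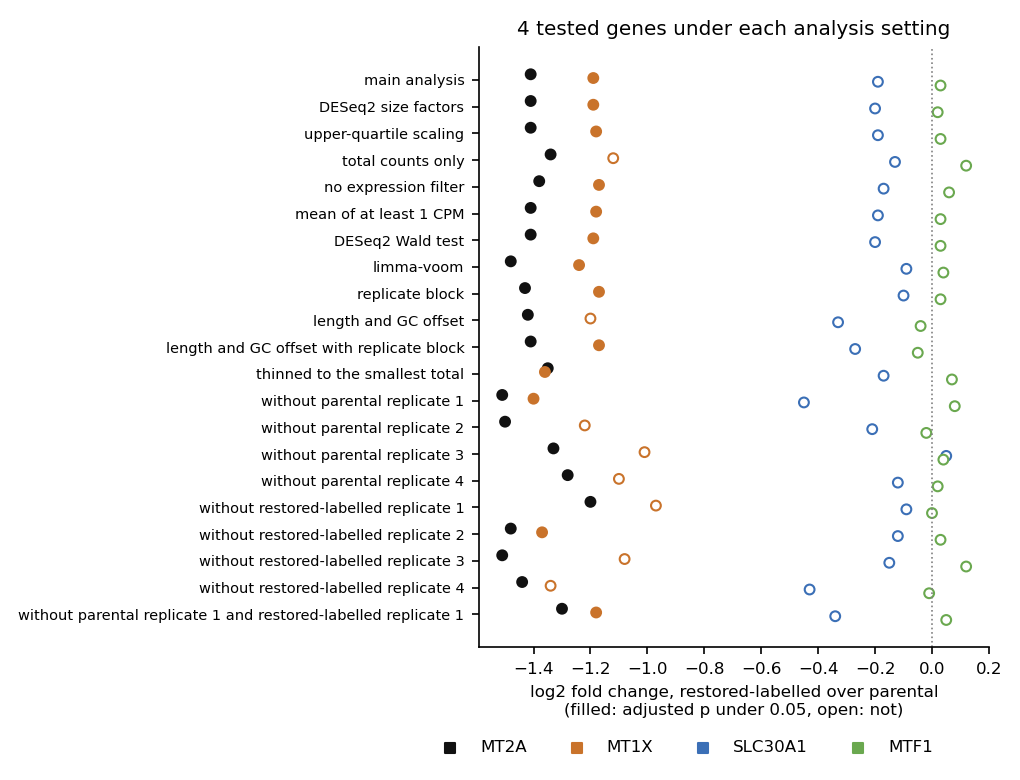
Log2 fold changes of MT2A, MT1X, SLC30A1 and MTF1 (x axis) in the main analysis and 20 other settings (y axis), filled where the adjusted p was under 0.05. MT2A is filled in every setting between -1.51 and -1.20, MT1X in some, and SLC30A1 and MTF1 in none.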

How the data were processed

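The authors deposited whole-number counts of reads for each gene in 8 libraries. Their totals differ between libraries, so they were read as not normalized. The submitters' processing notes name bcl2fastq, fastp 0.23.1, STAR 2.7.4 and GRCh38, and per the labels' protocols libraries came from total RNA with an mRNA kit. How reads were counted, on which gene models and with which strand setting is not given in the sources used here, so the handling of reads shared by near-identical genes is unknown. The labels matched all 8 columns to samples, leaving 0 unmatched.

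Identifiers were matched to GENCODE 29 (57943 of 58206 found) and to a table of symbols (57495 found). Gene positions come from GENCODE 29. Lengths are those of the GENCODE transcript linked to a RefSeq mRNA, within the RefSeq gene bounds. Promoters come from RefSeq (GRCh38.p14).

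The analysis used edgeR 4.0.16 (R 4.3.3): filterByExpr (minimum count 10, minimum total 15), TMM scaling and the two-sided quasi-likelihood test on the label alone, with Benjamini-Hochberg adjustment over all 14289 genes tested. Log2 CPM used a prior count of 2. In counts simulated from these libraries (14086 genes tested), edgeR recovered 62.8% of genes changed 2-fold and 93.8% of those changed 4-fold, with 2.6% of calls false. The share of false calls was 19.5% for the DESeq2 Wald test and 2.68% for limma-voom. Only 191 of the tested genes were changed, and the simulated counts held no effects shared within a library. These shares need not hold for the real libraries, where 19.2% of genes were called. The exact intervals of count ratios and the limit of 3 counts cover counting error only. The SEs and intervals of log2 fold changes come from the quasi-likelihood fit, so they also include the spread between libraries. Alternatives were DESeq2 1.42.0 size factors and its Wald test, upper-quartile and total-count scaling, no filter, a mean of at least 1 CPM, limma-voom (limma 3.58.1), the replicate block, an offset for length and GC content (splines with 5 degrees of freedom) alone and with the block, thinning to 11232951 counts, a threshold of 0.01, and each library left out in turn. Leaving out replicate 1 of both labels was added after seeing the data.

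The genes and lists were chosen with earlier results of these data known. Named were the 10 genes, up to 4 called genes per list and direction by smallest p-value (or the smallest p-value where none was called) and the 5 genes most like MT2A. NUP93, NQO1, FTL, HSPA1A, HSPA1B and SLC7A11 were named after their values were seen. 1 called gene of the NRF2 list is not reported here.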

Additional observations from a re-analysis of the deposited data

Results flagged for a closer look

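Of 46 groups of 4 values examined, for the tested genes and the called genes of the lists, 4 held a library far from the other 3 by Dixon's criterion, and chance alone flags about 5% of such groups. SLC30A5 stood at 91.7 CPM in restored-labelled replicate 4, against 66 to 67.5 CPM in the others of its label. COX11 stood at 60.8 CPM in that same library, against 47.6 to 48.5 CPM. BAG3 stood at 61.3 CPM in restored-labelled replicate 2, against 63.7 to 64.1 CPM. SLC12A3 stood at 0.969 CPM in restored-labelled replicate 1, against 0 to 0.0986 CPM. None of these values belongs to MT2A, MT1X, MTF1 or SLC30A1.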

How the results depend on the processing

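MT2A kept its direction and its call in all 20 other settings, and the metallothionein sum stayed between -1.46 and -1.14 (log2 ratio, restored-labelled over parental) over 12. Most of that sum is MT2A itself. The number of called genes among the 10 was 1 with total counts only, 1 with the length and GC offset and 1 at an adjusted p under 0.01, and 1 to 3 with 1 library left out, where the third gene, MT1G, passed the filter only through parental replicates 2 to 4, in which it was high, so that its call there supports nothing. The direction of MTF1 turned to -0.04 with the length and GC offset, -0.05 with that offset and the replicate block, -0.02 without parental replicate 2 and -0.01 without restored-labelled replicate 4 (range with 1 library left out -0.02 to 0.12), and that of SLC30A1 to 0.05 without parental replicate 3 (range -0.45 to 0.05), none of them called. Over all genes, 2738 were called in the main analysis, 964 at an adjusted p under 0.01, 4623 without replicate 1 of both labels, and 1394 (without restored-labelled replicate 4) to 3523 (without parental replicate 1) with 1 library left out. Of the 68 list genes tested, 15 were called in the main analysis, 3 at an adjusted p under 0.01, 32 without replicate 1 of both labels, and 4 to 21 with 1 library left out. With the replicate number as a block, 2033 genes were called in all, 2 of the 10 and 8 of the list genes. The calls of SLC39A3, SLC39A9, SLC7A11, HSF1, HSPB1 and BAG3 were lost with that block (edgeR adjusted p = 0.0794, 0.0811, 0.0952, 0.0673, 0.0624 and 0.0748). Deviations of same-numbered libraries from their group means correlated at -0.0629 to 0.227 over the 4 numbers. Differently numbered libraries were not compared, so these values cannot settle whether the numbers pair samples. The causes of these shifts were not tested. Depth limits the 6 genes under the filter, where 3 counts are worth 0.108 to 0.267 CPM.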

Other observations

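The genes whose libraries deviated from their group means most as MT2A did were, outside the lists and at a mean of at least 1 CPM, ZNF555, TMCC1-DT, COQ3, CLBA1 and HERC2P4, with a Pearson r of 0.962 to 0.971 over the deviations of 8 libraries, as a description without a test. By the same measure MT1X stood at 0.77, SLC30A1 at 0.526 and MTF1 at -0.329. The deviations share library, scaling and depth. Between the labels, HERC2P4 rose (log2 fold change 1.17, edgeR adjusted p = 0.013). The other 4 were not called, with log2 fold changes of 0.52 for ZNF555, -0.65 for TMCC1-DT, 0.01 for COQ3 and 0.27 for CLBA1 (edgeR adjusted p = 0.207, 0.068, 0.97 and 0.418). TMCC1-DT was lower in every restored-labelled library than in any parental one, as were 11.2% of all genes tested. Its 95% interval was -1.15 to -0.15.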
